A study of Drosophila melanogaster with 17 samples.

Results

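The Notch pathway was followed in the Drosophila melanogaster ovary through 7 core genes, N, Dl, Su(H), fng, neur, mam and kuz, taken by name from the authors' gene tables. All 7 were listed in both tables, among 12505 protein-coding genes measured by RNA-seq and 13797 measured by RNA polymerase II (Pol2) ChIP-seq. The material was whole ovaries of females 2 to 4 days old, with about 30 females dissected for each biological replicate. Wild-type ovaries were compared with ovaries mutant for cuff (cutoff), which encodes a protein needed for the transcription of piRNA clusters, with 3 libraries of each genotype in each assay. The genotypes are labelled wt and cuff only, and the sources used here give no allele or strain for either. Each table holds 1 value per genotype, the authors' mean of the merged libraries, so the values below carry no SD, and the spread between libraries enters only through the authors' deposited p.

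Notch signalling passes between cells in contact. The ligand Delta (gene Dl) on one cell binds the receptor Notch (N) on its neighbour. The protease Kuzbanian (kuz) and then gamma-secretase cut the receptor, and its released intracellular part joins the DNA-binding protein Suppressor of Hairless, Su(H), and the coactivator Mastermind (mam). In the ovary, Delta made by germline cells signals to the Notch of the follicle cells around them, which then leave the mitotic cycle for the endocycle, and Notch also acts in the choice of polar and stalk cell fates. The libraries were made from whole ovaries, so the values cannot be assigned to follicle cells. Germline markers such as vas (27694.7 in wild-type and 30009 in mutant ovaries) were read in the same RNA libraries as the follicle cell marker tj (1908 and 5515.9). These 2 genes do not stand for their lists. Of 7 germline markers 3 had a higher RNA value in the mutant and 4 a lower one, and all 9 follicle cell markers had a higher one. In whole ovaries, fewer cells of a type and less RNA per cell cannot be told apart.

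None of the 7 core genes passed in either assay. In RNA, 0 of 7 had a p of 0.05 or less in the authors' deposited table (DESeq; whether this p was adjusted is not stated), where 9.24% of all genes did. In Pol2, 0 of 7 passed, where 1.46% of all genes did. All 7 nevertheless had a higher RNA value in the mutant, by ratios from 1.14 to 1.92, where 51.1% of all RNA genes had one. This held with totals made equal and with changes centred on all genes, but not with changes centred on genes of like length, where 5 lay above 0 and 2 below. Pol2 values stayed within a ratio of 1.20 of wild type, with 5 higher and 2 lower in the mutant, where 58.5% of all genes were higher; centred on all genes, 2 lay above 0 and 5 below.

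The receptor and its ligand had the following values. For N, the authors' mean RNA value was 19978.8 in wild type against 32967.2 in the mutant, a ratio of 1.65 with p = 0.3 in the authors' deposited table. Its Pol2 value was 24357.3 in wild type and 25363.9 in the mutant (p = 0.9 in the authors' deposited table). The receptor gene thus had a higher RNA value in the mutant beside nearly equal Pol2 values, and neither difference passed. For Dl, the RNA value was 11745.7 in wild type against 16133.9 in the mutant, a ratio of 1.37 with p = 0.4 in the authors' deposited table. Its Pol2 value was 15800.2 and 16475.6 (p = 0.9 in the authors' deposited table).

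The next 3 genes act on the ligand or the receptor. Neuralized (neur) is the ubiquitin ligase that drives endocytosis of Delta in the sending cell. Its RNA value was 3460.2 in wild type and 5373.7 in the mutant, a ratio of 1.55 with p = 0.2 in the authors' deposited table, and its Pol2 value was 17775.8 and 18478.2 (p = 0.9 there). Fringe (fng) is a glycosyltransferase that extends O-fucose on Notch and favours its response to Delta. It had the largest RNA difference of the 7 and the lowest p, with 2039.8 in wild type and 3924 in the mutant, a ratio of 1.92 with p = 0.06 in the authors' deposited table. Its Pol2 value was 21211.3 and 23117.3, with p = 0.8 in the authors' deposited table, so the near doubling of its RNA value stood beside a Pol2 ratio of 1.09. The metalloprotease gene kuz had RNA values of 12168.5 and 18389.3, a ratio of 1.51 with p = 0.1 in the authors' deposited table, and Pol2 values of 34435.6 and 36853.7 (p = 0.8 there).

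The nuclear partners differed least in RNA. For Su(H), the RNA value was 2741 in wild type and 3133.3 in the mutant, a ratio of 1.14 with p = 0.7 in the authors' deposited table, and the Pol2 value was 2136.2 and 2058 (p = 0.9 there). For mam, the RNA value was 5835.7 and 7806.4, a ratio of 1.34 with p = 0.5 in the authors' deposited table. At Pol2 the value of mam was 46231.1 in wild type and 38495.9 in the mutant, 1.20-fold lower, with p = 0.5 in the authors' deposited table. This was the widest Pol2 difference among the 7 genes, and its log2 change of -0.26 lay at percentile 12.4 of all Pol2 genes and at 5.99 among genes of its length class.

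**Figure D1:**
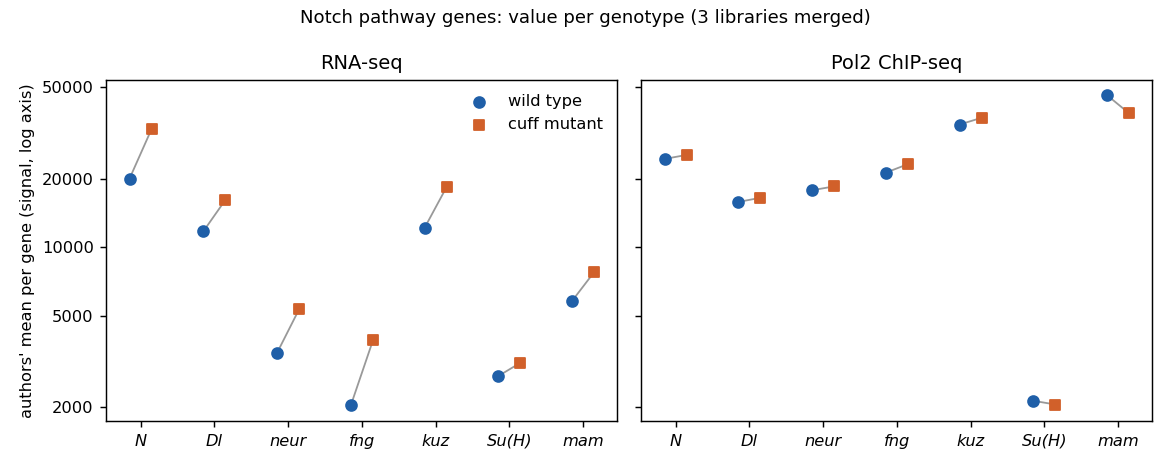
Authors' mean value of each of the 7 core genes in wild-type ovaries (circles) and cuff mutant ovaries (squares), on a log axis, for RNA-seq (left) and Pol2 ChIP-seq (right); each point is 3 merged libraries, so no error bar can be drawn. The RNA points of all 7 genes are higher in the mutant, from a ratio of 1.14 for Su(H) to 1.92 for fng, while Pol2 points nearly coincide, with mam 1.20-fold lower; none passed.

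The size of a difference that passed at these levels was read from the same tables. Among the 4463 RNA genes whose mean over both genotypes lay within the range of the 7 genes (2937 to 26473), 3.63% of those with a log2 change of 0.5 to 0.75 in either direction passed. The share was 47.4% at 0.75 to 1 and 93.4% at 1 to 1.5. N, neur and kuz, with log2 changes of 0.72, 0.63 and 0.60, lie in the first of these ranges and fng, with 0.94, in the second. RNA changes of the size seen for N, neur and kuz therefore mostly did not pass at these levels, whereas 47.4% passed in the range of fng. In Pol2, 0 of 3382 genes within the level range of the 7 passed with a log2 change under 0.25, the range that held 6 of them.

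RNA changes in these tables went with gene length, and 6 of the 7 core genes are long. Gene spans in the Release 6 annotation are 19.1 kb for neur, 23.5 kb for Dl, 23.6 kb for fng, 37.4 kb for N, 69.2 kb for mam and 89.3 kb for kuz, all in the longest of 5 length classes (7.32 kb or more). Su(H), at 3.85 kb, falls in the next class. The median RNA log2 change was 0.60 over the 7 genes, 0.02 over all genes, 0.49 over the 2488 genes of the longest class and 0.11 over the class of Su(H). In the longest class 73.9% of genes had a higher RNA value in the mutant, and 16.8% passed as higher. Within their length classes the RNA changes of the 7 genes lay between percentile 46.1 (mam) and 70.2 (fng), that is, in the middle of genes of like length. Relative to the class median, Dl and mam lay just below it, at -0.03 and -0.07 on the log2 scale, and the other 5 above it.

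**Figure D2:**
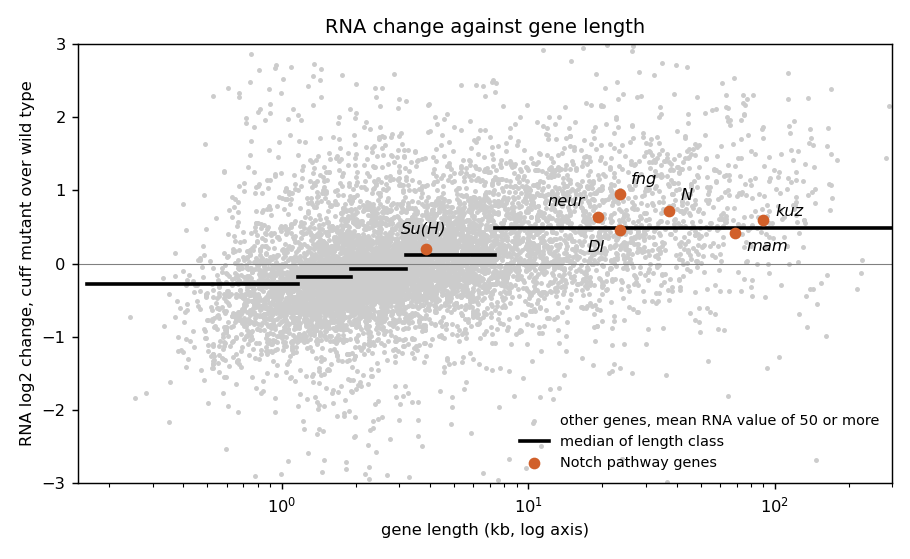
RNA log2 change, cuff mutant over wild type, against gene length in kb (log axis) for genes with a mean RNA value of 50 or more; bars mark the median over all genes of each of 5 length classes, and 119 of 8465 genes lie outside the axes. The 7 core genes (large points) scatter around the bar of their class, at 0.49 for the longest genes and 0.11 for the class of Su(H).

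RNA and Pol2 were then set side by side for each gene. The tables were normalised separately, so the RNA over Pol2 ratio of a gene is read only beside that of other genes. In wild type the log2 ratio ran from 0.36 for Su(H), -0.29 for N and -0.43 for Dl down to -1.50 for kuz, -2.36 for neur, -2.99 for mam and -3.38 for fng, beside a median of -1.18 over the 12371 genes in both tables. N, Dl and Su(H) thus gave more RNA signal for their Pol2 signal than the median gene, and kuz, neur, mam and fng gave less. This comparison was not corrected for gene length. If RNA reads were counted over exons alone, which is not stated, genes with long introns may read low in it. In the mutant the ratio was higher for all 7, by a log2 of 0.25 for Su(H) to 0.82 for fng, where the median was 0.05 over all genes, 0.42 over the longest class and 0.16 over the class of Su(H). Of the 6 long genes, Dl (0.40) lay below the median of its class and the other 5 above it. The order of the 7 genes in this ratio was the same in both genotypes. These ratios have no replicate test.

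Levels were compared between genes per kb of gene span. The sources used here do not say whether reads were counted over exons or whole genes, so genes with long introns may read low per kb in RNA. In wild-type RNA the order was Su(H) (713 per kb), N (535), Dl (500.1), neur (181), kuz (136), fng (86.4) and mam (84.4). N and Dl were close to each other, as were fng and mam, and without replicate values no neighbours in this order can be separated. In the mutant N (883 per kb) stood above Su(H) (814), and the other genes kept their places. In wild-type Pol2 the order was different, with neur (929.5 per kb) and fng (898) highest, Dl (673), mam (669) and N (652) close together, then Su(H) (555) and kuz (386). The per kb RNA levels of the 7 lay between percentile 42.2 and 57.7 of all genes, and their Pol2 levels between 49.4 and 75.1. No background was subtracted here from the Pol2 values. For scale, the 1426 genes with a Pol2 value but no RNA value had a median wild-type Pol2 signal of 140 per kb. A background shared by both genotypes would draw the Pol2 ratios of the core genes toward 1, which was not tested.

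A further 62 genes of the pathway were listed in 8 groups by role, and 60 of them were in the RNA table. In RNA 6 rose, 2 fell and 52 did not pass, so 13.3% passed against 9.24% of all genes, of which 5.5% were higher and 3.73% lower. In Pol2 0 of 62 passed, against 1.46% of all genes. The 6 that rose are aux, bib, H, nej, peb and Fas3, and the 2 that fell are O-fut1 and shams. With the deposited p adjusted again only nej and peb of these 8 passed, and with a 2-fold difference required aux, bib, H, nej and peb did. By length, 5 of the 6 genes that rose are in the longest class, where 5 of 19 listed genes rose against 16.8% of all genes of that class, and both that fell are short, at 1.63 and 1.88 kb.

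Among the nuclear cofactors 2 of 6 measured genes rose and 0 fell, where 5.5% of all genes were higher. The list median was 0.27 on the log2 scale, and -0.056 centred on the length class, with 3 genes above 0 and 3 below. Of the 2 that rose, nej is in the longest class, where 16.8% were higher, and H in the next, where 4.5% were. The gene nej encodes CBP, the acetyltransferase that acts as a coactivator with Mastermind, and its RNA rose 2.72-fold from 12936.1 to 35124.6 (p = 0.0006 in the authors' deposited table). Hairless (H), the antagonist that binds Su(H) and recruits corepressors, rose 2.39-fold from 3280.6 to 7844.3 (p = 0.03 in the authors' deposited table). With the deposited p adjusted again nej passed (0.026) and H did not (0.39). Their Pol2 values were slightly lower in the mutant (29146.2 and 25553.5 for nej, 5189.9 and 4777.8 for H) and did not pass. The corepressor genes that work with Hairless did not pass. RNA values were 23989.9 and 23913.9 for gro and 33560.7 and 34443.3 for CtBP, both with p = 1 in the authors' deposited table. Smr, a further corepressor gene, had 20552.5 and 29191, and insv had 4068.5 and 3262.9.

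The glycosylation genes were the group with lower values. All 5 had a lower RNA value in the mutant, and the list median was -0.76. All 5 also lay below 0 with equal totals and with changes centred on all genes or on the length class (median -0.57). By the deposited p, 2 of the 5 fell, where 3.73% of all genes did. Both calls are lost with the deposited p adjusted again (0.54 for O-fut1 and 0.39 for shams) or with a 2-fold difference required. O-fut1, which adds O-fucose to Notch and so makes the substrate of Fringe, fell 1.69-fold from 9182.2 to 5432.7, with a p printed as 0.05 in the authors' deposited table, on the threshold. The gene shams, listed as CG9996 and encoding a xylosyltransferase of Notch, fell 1.72-fold from 6771.9 to 3927.4 (p = 0.03 in the authors' deposited table). The O-glucosyltransferase gene rumi had 8392.8 and 5468.4, the fucose transporter gene Efr 3187.8 and 1790.1, and Gmd, of GDP-fucose synthesis, 3812.2 and 3206.7, with p of 0.2, 0.07 and 0.9 in the authors' deposited table. These genes are 1.58 to 2.76 kb long, and the median RNA log2 change was -0.18 in the second and -0.08 in the third length class, where they fall. Pol2 values were higher in the mutant for 4 of the 5 (3 when centred on all genes), and none passed.

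In the ligand and endocytosis group 1 of 7 rose and 0 fell. Of all genes 5.5% were higher, and 16.8% of the longest length class, which holds the gene that rose. The gene aux encodes auxilin, which uncoats clathrin vesicles and is needed for Delta signalling, and rose 2.13-fold from 2541.9 to 5410.1 (p = 0.02 in the authors' deposited table). Clathrin heavy chain (Chc) had 53846 and 67291.4, the epsin gene lqf 23666.2 and 22546.1, the dynamin gene shi 9884.5 and 10573.1, and mib2 7438.1 and 6499.9. The gene of the other Notch ligand, Ser, named here after its values were seen, was near absent in RNA at 9.6 and 7.2.

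Of the 6 cleavage genes 0 passed in RNA or Pol2, where 9.24% and 1.46% of all genes did. Their RNA median was 0.04 on the log2 scale. Of the gamma-secretase subunits, nct had RNA values of 5433.8 and 5191.1, Psn 3728.8 and 4106, aph-1 2173.2 and 1725, and pen-2 1805.5 and 1185.5. In the receptor trafficking group 1 of 11 rose and 0 fell, where 5.5% of all genes were higher. The gene that rose is in the longest length class, where 16.8% were higher. The gene bib, a neurogenic gene of the aquaporin family, rose 3.82-fold from a low value of 189.9 to 726.1 (p = 0.004 in the authors' deposited table). The ubiquitin ligase genes Nedd4 (48470.9 and 37759.6) and Su(dx) (11365.3 and 14107.1), the clathrin adaptor gene AP-2alpha (27651.2 and 27741.5) and the arrestin gene krz (21284.8 and 23466.7) did not pass.

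**Figure D3:**
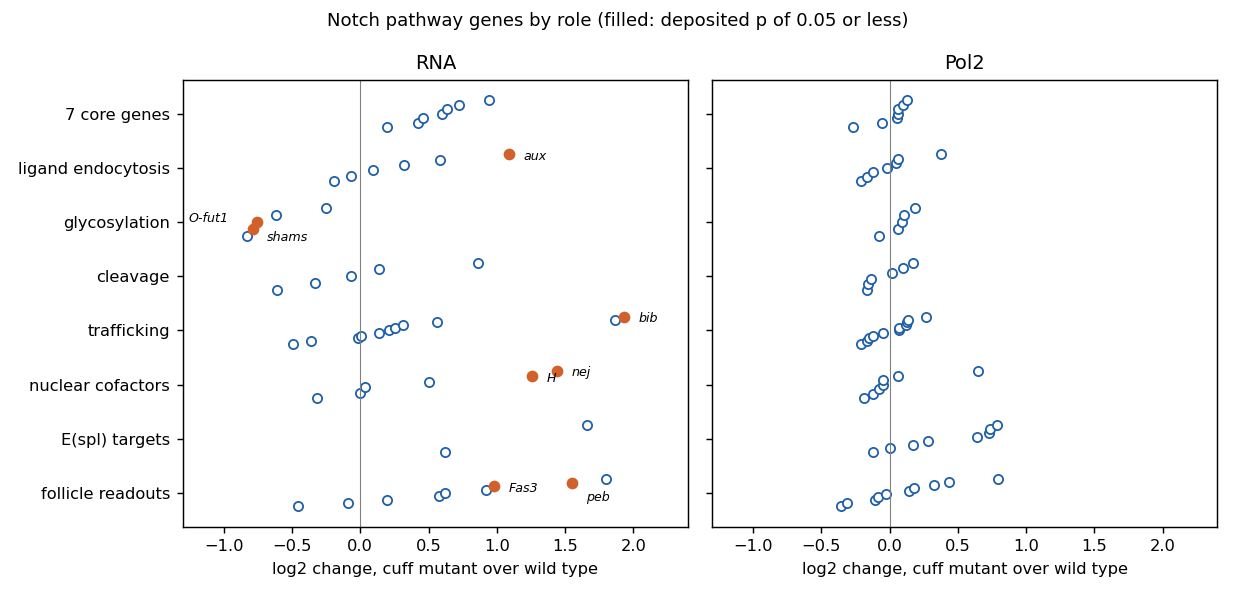
Log2 change, cuff mutant over wild type, of the 7 core genes and of further pathway genes by role, in RNA (left) and Pol2 (right), for genes with a mean value of 50 or more; filled points have a deposited p of 0.05 or less. In RNA 6 further genes rose and 2 fell, while in Pol2 no point is filled; the Bearded family is not drawn, since none of its genes reached a mean of 50 in RNA.

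Transcripts of the E(spl) complex, the direct targets of Su(H) and Notch in many tissues, were scarce in both genotypes. Of 8 E(spl) genes, 7 of which encode bHLH repressors, 0 passed in RNA and 0 in Pol2, where 9.24% and 1.46% of all genes did. A mean RNA value of 50 or more was reached by 2 of the 8. Of the 1155 genes that passed in RNA, 1119 had such a mean, so the RNA count of 0 says little about the genes below it. The highest wild-type RNA values were those of E(spl)m3-HLH, with 239.3 in wild type and 368.6 in the mutant, and E(spl)mbeta-HLH, with 43.8 and 140.7. Next in wild type came E(spl)m7-HLH with 15.9 and 31.4 and E(spl)mgamma-HLH with 2.4 and 7.7, and E(spl)m1 was listed at 0 in wild type and at 13.2 in the mutant. The lowest p of the 8 in the authors' deposited table was 0.2, for E(spl)mbeta-HLH.

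Pol2 signal at the same genes was uneven. Per kb of gene, wild-type Pol2 was 5346 at E(spl)mbeta-HLH, at percentile 98.3 of all genes, while its RNA per kb lay at percentile 38.5. E(spl)m3-HLH had 1571 per kb (percentile 87.5) and E(spl)m7-HLH 963 (percentile 76.0), against RNA percentiles of 46.8 and 32.1. The other 5 had 139 to 266 per kb. For comparison, the 1426 genes listed in the Pol2 table but not in the RNA table had a median of 140 per kb and quartiles of 102 and 176, and of the 5 E(spl)mgamma-HLH (186) and E(spl)m8-HLH (266) lay above the upper quartile. E(spl)mbeta-HLH thus combined a high Pol2 signal with little RNA in both genotypes, and its Pol2 values, 5228.2 in wild type against 6347.8 in the mutant, had p = 0.5 in the authors' deposited table. The Bearded family, inhibitors of Neuralized of which 4 members lie in the same complex, had RNA values of at most 29.6 in the 7 measured genes. In this family 0 passed in RNA or Pol2, where 9.24% and 1.46% of all genes did. All 7 lay below a mean RNA value of 50, where few genes passed, so the RNA count of 0 says little about them. Within that family E(spl)m2-BFM had 29.6 and 19.6 in RNA and a wild-type Pol2 signal of 1585 per kb, at percentile 87.7.

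**Figure D4:**
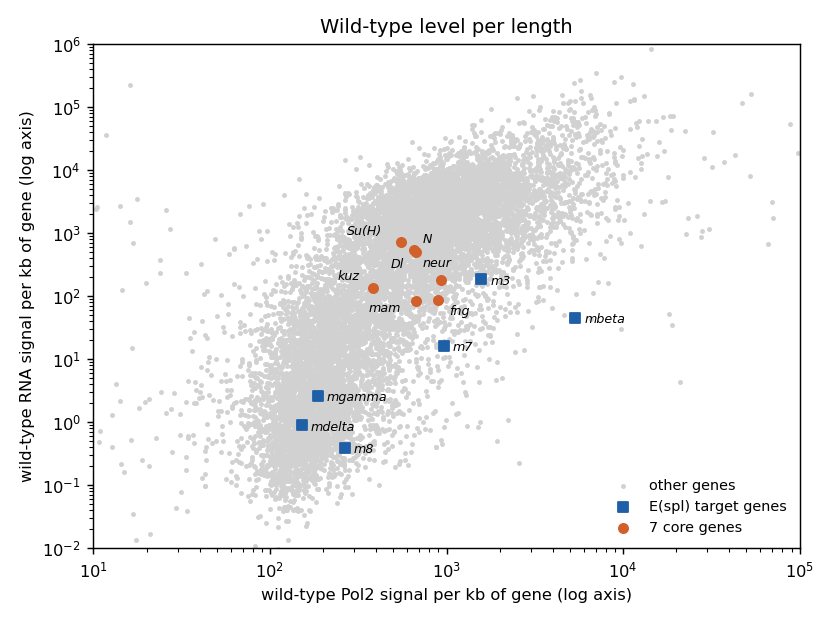
Wild-type RNA signal against wild-type Pol2 signal, each per kb of gene span on a log axis, for genes above 0 in both; 77 of 11720 genes lie outside the axes, and the 2 E(spl) genes listed at 0 in RNA are not drawn. The 7 core genes lie within the main cloud, between 84.4 and 713 per kb in RNA, and E(spl)mbeta-HLH lies far to the right of genes of like RNA level, at 5346 per kb in Pol2.

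Of 10 readouts of Notch in follicle cells 2 rose in RNA, 0 fell and 8 did not pass, where 5.5% of all genes were higher, and 16.8% of the longest class, which holds both genes that rose. The gene peb (hindsight), a zinc finger factor that Notch induces when follicle cells enter the endocycle, rose 2.92-fold in RNA from 1559 to 4558.1 (p = 0.0004 in the authors' deposited table), with Pol2 values of 16059.2 and 15778. Fas3, an adhesion gene that is high in immature follicle cells and polar cells, rose 1.98-fold from 6088.1 to 12028.4, with a p printed as 0.05 in the authors' deposited table, on the threshold. The gene ct (cut), which Notch turns off at the same step, had 1675.1 and 3164 with p = 0.07 in the authors' deposited table; it is named after its values were seen. Of the cell cycle genes of this step, stg (string, repressed by Notch) had RNA values of 13857.5 and 13024.8, and fzr (induced by Notch, listed as rap) had 5962.6 and 6825. The Cdk inhibitor gene dap had 15076.7 and 11021.9, and ttk 15041.2 and 23158.8. None of these 4 passed in RNA or Pol2. With the deposited p adjusted again peb passed (0.019) and Fas3 did not (0.54).

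Markers of several ovarian and neighbouring cell types were read in RNA as well. Beside them, 5.5% of all RNA genes rose and 3.73% fell, and 16.8% of the longest length class rose. Median gene length was 9.64 kb in the follicle cell list, 12.5 kb in muscle, 32.7 kb in neuron and 13.9 kb in hemocyte, all within that class. It was 3.27 kb in the germline list and 2.81 kb in the fat body list. Of 9 follicle cell markers 5 rose and 0 fell (peb, Fas3, ct and eya stand in both lists), and their summed RNA value went from 170812 to 330560, most of it from the yolk protein gene Yp1 (156099 and 299856). Of 7 germline markers 0 rose and 1 fell, and 4 of the 7 values were lower in the mutant. The gene that fell is bam, from 5057.3 to 1653.7 (p = 2e-05 in the authors' deposited table). The germline sums were 267988 and 262420, most of each from osk (113027 and 110687) and nos (69240.8 and 43536.9), which did not pass. Of 7 muscle markers 5 rose and 0 fell, with sums of 15248 and 46542. In the neuron list 1 of 6 rose (sums of 918 and 2567), in the hemocyte list 1 of 5 (4765 and 6770) and in the fat body list 2 of 4 (1885 and 5432), with 0 falling in each. Most of the hemocyte sum came from srp (4494.2 and 5777.2), which did not pass. In Pol2 fewer markers passed, where 1.46% of all genes did, and not all in the direction of their RNA. Of the follicle cell markers 1 of 9 passed, the vitelline membrane gene Vm26Ab, which fell from 14490.1 to 8847.3 (p = 1e-08 in the authors' deposited table). Of the muscle markers bt gained from 6581.5 to 10380.2 (p = 0.02 in the authors' deposited table), and Prm fell from 49453.7 to 32893.3 (p = 0.0007 there) although its RNA rose from 796.7 to 1924.8. In the germline, neuron, hemocyte and fat body lists 0 passed in Pol2. No marker was listed at 0 in RNA in either genotype. The part of these cell types in the RNA values of the Notch genes was not tested.

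Genes beside the 7 were read next, since reads of overlapping genes may be shared where counting ignores strand, which is not stated. A protein-coding gene overlaps fng (CG10589), neur (hyx), mam (CG18371) and kuz (CG9254) in the Release 6 annotation, and none overlaps N, Dl or Su(H). RNA of CG10589, CG18371 and CG9254 was near 0 in both genotypes (at most 9.6), whereas hyx had 3323.9 and 4910, values close to those of neur (3460.2 and 5373.7). At Pol2, CG10589, which lies within fng, gained 1.81-fold from 550.9 to 995.7 with a p printed as 0.05 in the authors' deposited table, a value small beside the 21211.3 of fng itself. Of the 14 protein-coding genes on either side of the 7, 12 were in the RNA table and 2 passed, where 9.24% of all genes did. Both that passed are in the longest length class, where 18.6% of genes passed in RNA. The gene kirre, next to N and encoding an adhesion protein of the immunoglobulin family, rose 4.05-fold from 7538.5 to 30541.5 in RNA (p = 4e-10 in the authors' deposited table). It was also the only neighbour of the 14 to pass in Pol2, where 1.46% of all genes did. Its Pol2 value rose 1.54-fold from 64622 to 99280.3 (p = 0.03 in the authors' deposited table). Prosap, next to mam, rose 2.11-fold from 16820.2 to 35417 in RNA (p = 0.004 in the authors' deposited table) with a Pol2 p of 0.8 there. N and mam thus each lie beside a gene that rose in RNA, without passing themselves; the difference between neighbours was not tested.

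The genes most like each core gene were found by the Euclidean distance over 4 values, the log2 levels in wild-type RNA and Pol2 and the log2 changes in both, among the other 12370 genes in both tables. The nearest to N was sdk (distance 0.20), then insc (0.21). The nearest to Dl were Alh (0.11) and Fim (0.19), to Su(H) Mgat1 and mus312 (both 0.18), and to neur Ziz (0.18) and app (0.21). Both genes nearest to kuz, ed and Ptp10D, lay at 0.20. The genes nearest to fng were dnr1 (0.23) and CG9650 (0.37), and both rose in RNA, dnr1 1.99-fold with p = 0.02 and CG9650 2.39-fold with p = 0.006 in the authors' deposited table. Because the distance includes the RNA change, genes with a change like that of fng are favoured by this choice. That both passed therefore does not bear on fng, which did not pass. The gene mam had no close match, with Inx7 at 0.53 and CG42389 at 0.57.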

How the data were processed

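Tools named per the submitters' processing notes include Bowtie2 2.0.0, TopHat2 2.0.8 and DESeq 1.16.0, with build dm3; the counter and annotation are not given in the sources used here. Per the file headers, each gene table is DESeq output (pooled dispersions, parametric fit alone). The deposited genotype values are a signal, taken to be counts divided by size factors and averaged over 3 libraries. The deposited log2 fold change, given to 1 decimal, was not used. The deposited p-value is printed to 1 digit, so genes at 0.05 lie on the threshold: of 40 RNA genes at 0.05 with a 2-fold difference the authors called 20. Depth per library is unknown.

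Here a gene passed at a deposited p of 0.05 or less. Changes are log2 of mutant plus 1 over wild type plus 1, which understates changes of low genes; folds and ratios are of the authors' means. Gene spans and neighbours came from the RefSeq Release 6 gene table (12440 of 12505 RNA genes and 13724 of 13797 Pol2 genes matched); Dl is listed there as Delta. Named genes are the 7 core genes, pathway genes that passed and up to 4 others per pathway list by highest wild-type RNA value. Neighbouring and overlapping genes and the 2 nearest in profile are named as well. Exceptions are stated, and E(spl)m1 and E(spl)m8-HLH are also named outside this rule. Marker genes were named without a rule, and not every marker that passed is named. The core genes and lists were chosen with earlier results of these data known. Computations used Python 3.11.15 and pandas 2.3.3 and were tested on simulated data. The planned edgeR and DESeq2 tests need library counts and were not run; sequences, promoter motifs, coding lengths and the Cuff peaks were not analysed here.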

Additional observations from a re-analysis of the deposited data

How the results depend on the processing

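The count of core genes that passed was 0 in RNA and 0 in Pol2 under the deposited p, with that p adjusted again, with a 2-fold difference required, with a mean of at least 50 and at p of 0.04 or less, the last chosen after seeing the data. The count of further genes that passed in Pol2 was also 0 under all of these. In RNA, 8 further genes passed, and 2 did with the deposited p adjusted again (nej and peb, at 0.026 and 0.019), 5 with a 2-fold difference required, and 6 at 0.04 or less; 2.81%, 6.87% and 8.37% of all genes pass these stricter rules. The RNA median of the core genes was 0.60, and 0.11 centred on the length class, with 5 genes above 0 and 2 below. It lay between 0.58 and 0.66 with pseudocounts of 0.1 or 10, equal totals, centring on all genes or a mean of at least 50. The Pol2 median was 0.058, -0.026 centred on all genes and -0.045 centred on the length class, so its sign depends on centring. No paired analysis was possible because each table holds 1 value per genotype, and leaving out a library was not possible for the same reason. These merged values limit every statement on single genes.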
